A study of Mus musculus with 6 samples.

Results

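The 10 genes described here encode transcription factors and extracellular matrix proteins of cartilage. They are Sox9, Sox5, Sox6, Acan, Hapln1, Comp, Matn3, Matn4, Chad and Prg4. They were chosen by symbol, and each has 1 probe set on the array, so all 10 were found among the 19938 genes measured. The samples were 3 osteosarcoma cell lines and 3 osteoblast cultures, all of mouse origin and each hybridised to 1 Affymetrix Mouse Gene ST array. Each line (OS_493H, OS_494H, OS_716H) was grown from 1 primary tumour in bone. The C57Bl6 donors carried Rb fl/fl and p53 fl/fl alleles and Osx-Cre, a Cre recombinase driven by the Osterix promoter of the osteoblast lineage. Per the labels, OS_493H came from the hip of a female (age 188, unit not given), OS_494H from the hip of a male (age 190) and OS_716H from the tibia of a female (age 226). The osteoblasts were made from KUSA4b10, a stromal line of C57Bl6 marrow, which received ascorbate at 50 ug/ml once confluent and was differentiated over 21 days. The 3 cultures are 1 cell line, and their titles number them rep 1 to rep 3 and Ex1 to Ex3. The labels do not say what Ex stands for, so p-values may in part measure technical spread. No ascorbate or differentiation time is given for the lines, so tumour origin and culture state cannot be told apart.

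Cartilage is made by chondrocytes, cells that share a mesenchymal precursor with osteoblasts. Sox9 directs cells into the chondrocyte lineage, and Sox5 and Sox6, which have no activation domain of their own, act with it on cartilage genes. The matrix that results is a collagen network filled with aggrecan (Acan), whose chondroitin sulfate chains hold water. Aggrecan is anchored to hyaluronan by link protein (Hapln1), and Comp, the matrilins Matn3 and Matn4, and chondroadherin (Chad) bridge collagen, proteoglycans and cells. Lubricin (Prg4) coats the joint surface. Osteosarcomas can contain areas of cartilage-like matrix beside bone.

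Values below are log2 expression, so 1 unit is a 2-fold step, and differences are osteosarcoma lines minus osteoblast cultures. A gene rose or fell where limma's moderated test gave a p below 0.05 once adjusted by Benjamini-Hochberg across the 19938 genes. With 3 arrays a side, precision is limited throughout. The arrays give no detection call. As a guide to the low end of the scale, 1190 genes of olfactory and vomeronasal receptors, which bone cells are not known to use, had mean values with a median of 5.14 and a 95th percentile of 6.79. Probe sets differ in brightness, so this range does not decide whether a single gene is expressed.

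Before the results, the arrays were set against their labels. Rb1 was 9.26, 9.70 and 9.87 in OS_493H, OS_494H and OS_716H, against 10.68, 10.66 and 10.66 in the cultures, so it fell by 1.05 ± 0.15 (SE, limma adjusted p = 0.00427). Whether its probes lie in the deleted part of the gene was not tested, and the other deleted gene was not analysed here. Xist was 12.62, 5.31 and 5.50 in OS_493H, OS_494H and OS_716H, and Eif2s3y, a Y-linked gene, was 4.08, 9.96 and 10.11 in the same order. The array labelled OS_716H, a female, therefore goes against its label, and values without it are given beside the results that it moves most. Cultures 1 and 3 were closer to each other (3 genes more than 1 log2 unit apart) than to culture 2 (150 and 186 genes). Other cell markers also moved with the groups. Their counts are to be read against 13.2% of all genes that rose and 11.4% that fell. Of 8 measured adipocyte markers all fell, with a mean level over the markers of 7.75 to 8.29 in the lines and 11.21 to 11.98 in the cultures. Of 7 measured osteoblast markers 3 fell and none rose (9.31 to 9.91 in the lines, 11.79 to 12.52 in the cultures), and those that fell were Ibsp, Dmp1 and Phex. Of 6 smooth muscle markers, Cnn1 and Tagln rose (9.45 to 9.85 in the lines, 8.20 to 8.62 in the cultures). Acta2 did not pass, and Myh11, Myocd and Des stayed between 6.06 and 7.52 in all 6 arrays. Blood cell markers averaged 6.30 to 6.41 in the lines and 6.34 to 6.42 in the cultures, and endothelial markers 6.30 to 6.88 and 6.26 to 6.30, with no member of either list called. The part of these cell types in the results below was not tested. In bulk RNA, fewer cells of a type and less RNA per cell cannot be told apart.

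Of the 10 cartilage genes, none rose and 2 fell in the osteosarcoma lines. Those that fell were Sox5 and Matn4, by 1.43- and 1.55-fold. Neither reached 2-fold, a size that 4.07% of all genes passed with a call upward and 2.81% with a call downward. Among all genes, 13.2% rose and 11.4% fell (24.6% in either direction), so the share that fell, 2 of 10, rests on a count too small to set apart from the background. Without OS_716H the counts were also 0 and 2. No member had a higher level at an unadjusted limma p under 0.05 either, against 3699 of all 19938 genes. With 10 genes, this count too is too small to set apart from the background. The groups did not overlap for Sox5, Matn4 and Hapln1, 3 of 10, against 41.5% of all genes. The median difference was 0.0023 over the 10 genes and -0.02 over all genes. A large spread among the lines was seen in 3 of the 10 genes, Prg4, Comp and Hapln1, each high in a different line. Other cartilage genes also had such a spread (given below).

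**Figure D1:**
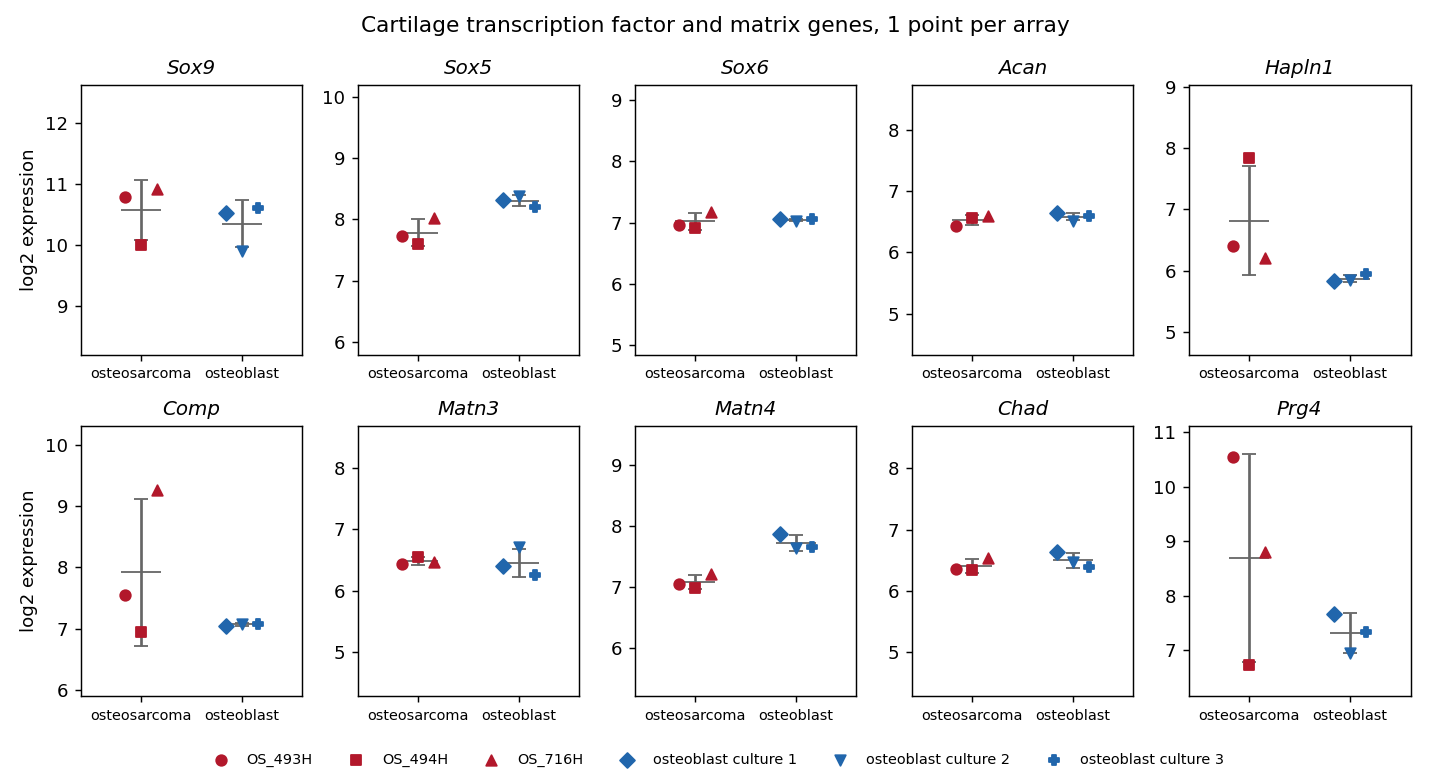
Log2 expression of the 10 cartilage genes, 1 panel per gene, with the 3 osteosarcoma lines (red) left of the 3 osteoblast cultures (blue); each point is 1 array, horizontal bars are group means and error bars are SD (n = 3), and every panel spans at least the same height. Prg4 is highest in OS_493H (10.54), Comp in OS_716H (9.26) and Hapln1 in OS_494H (7.83), while Sox6, Acan, Matn3 and Chad lie close together in all 6 arrays.

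The transcription factors did not move together. Sox9 (probe set 10382328), the lineage-determining factor, was 10.79, 10.01 and 10.92 in OS_493H, OS_494H and OS_716H, and 10.52, 9.91 and 10.61 in osteoblast cultures 1, 2 and 3. The groups overlapped: OS_494H and culture 2 were the low arrays of their groups, and the other 4 arrays lay close together. The difference of 0.23 ± 0.29 (SE) had a 95% interval of -0.46 to 0.92 (limma adjusted p = 0.641). It was 0.05 without OS_716H (adjusted p = 0.917), 0.0069 without culture 2 (0.991), 0.12 without OS_493H (0.866), 0.36 without culture 3 (0.550) and 0.51 without OS_494H (0.154), so its size rested on single arrays and it passed in none of these fits. All 6 values lay well above the receptor range. The spread of Sox9 within a group was larger than the difference between the groups.

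Sox5 (probe set 10549200), a co-factor of Sox9, was 7.72, 7.61 and 8.03 in OS_493H, OS_494H and OS_716H, against 8.32, 8.39 and 8.20 in cultures 1 to 3. Every line lay below every culture, with OS_716H and culture 3 the nearest to each other. The difference was -0.52 ± 0.12 (SE, limma adjusted p = 0.0245). The call was lost without OS_493H (adjusted p = 0.0746), without culture 1 (0.0900), culture 2 (0.0785) or culture 3 (0.0574), and with cultures 1 and 3 counted as 1 sample (0.0699). Without OS_716H it held (-0.64, adjusted p = 0.00704).

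Sox6 (probe set 10567108), the close relative of Sox5, was 6.96, 6.91 and 7.18 in OS_493H, OS_494H and OS_716H, against 7.05, 7.02 and 7.06 in the 3 cultures. The lines straddled the cultures, and the difference was -0.03 ± 0.09 (SE, limma adjusted p = 0.869), with a 95% interval of -0.24 to 0.19. Among the 16 other measured genes of the Sox family, Sox12, a member of the SoxC group, rose and none fell, against 13.2% and 11.4% of all genes. Sox12 was 8.88, 9.08 and 8.61 in the lines, against 8.08, 7.98 and 7.91 in the cultures (0.87 ± 0.13 SE, adjusted p = 0.00441). Sox11, of the same group, was 6.87, 5.98 and 6.87 in the lines, against 6.15, 6.28 and 6.01 in the cultures, so that OS_494H lay with the cultures (0.43 ± 0.25 SE, adjusted p = 0.277). Without OS_494H, Sox11 passed (0.73, adjusted p = 0.00455). For Sox11, OS_494H and the cultures lay inside the receptor range.

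Of the aggrecan network, neither gene passed. Aggrecan itself (Acan, probe set 10554249), the main proteoglycan of cartilage, was 6.43, 6.57 and 6.59 in OS_493H, OS_494H and OS_716H, and 6.64, 6.52 and 6.59 in the cultures. All 6 values lay inside the receptor range, and the groups overlapped. The difference was -0.05 ± 0.08 (SE, limma adjusted p = 0.688), with a 95% interval of -0.24 to 0.13. Hapln1 (probe set 10406519), the link protein, was 6.41, 7.83 and 6.21 in OS_493H, OS_494H and OS_716H, against 5.83, 5.84 and 5.94 in the cultures. Each line lay above each culture, and OS_494H was 3.08-fold above the lowest line. All values but that of OS_494H lay inside the receptor range, so the folds and the gap between the groups rest on the low end of the scale. The difference of 0.95 ± 0.40 (SE) did not pass (limma adjusted p = 0.147). Without OS_494H it was 0.44 and passed (adjusted p = 0.0205).

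Hapln1 and its 3 paralogues each neighbour a gene of the lectican proteoglycans, with no coding gene between them in the RefSeq order of genes. Hapln3 neighbours Acan, and Hapln1 neighbours versican (Vcan), a large proteoglycan of loose connective tissue that also binds hyaluronan. None of these 8 genes was called, against 24.6% of all genes called in either direction. Vcan was 13.28, 12.31 and 13.44 in OS_493H, OS_494H and OS_716H, and 12.38, 11.78 and 12.31 in the cultures (0.85 ± 0.32 SE, limma adjusted p = 0.105), and it passed without OS_494H (1.20, adjusted p = 0.00725) and with array weights (0.0377). OS_494H, the line highest in Hapln1, was thus the lowest line in Vcan, and it overlapped the cultures. On the other side of Hapln1, Edil3, an integrin-binding matrix protein, was 10.35, 11.01 and 10.36 in the lines, against 8.51, 8.58 and 8.87 in the cultures (1.92 ± 0.20 SE, adjusted p = 0.00153). Vcan and Edil3 were looked up after the values of Hapln1 had been seen.

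Among the bridging proteins, Matn4 fell, Comp varied among lines, and Matn3 and Chad did not pass. Matn4 (probe set 10489471), a matrilin found in cartilage and in other connective tissues, was 7.05, 6.98 and 7.21 in OS_493H, OS_494H and OS_716H, against 7.87, 7.63 and 7.65 in the cultures. The lines lay close together, and every line was below every culture. The difference was -0.64 ± 0.10 (SE, limma adjusted p = 0.00581), and it passed under each of the 16 alternative settings (adjusted p up to 0.0252). Without OS_716H it was -0.70 (adjusted p = 0.00757). Matn3 (probe set 10394488), a matrilin of growth cartilage, was 6.43, 6.56 and 6.47 in the lines, against 6.40, 6.71 and 6.26 in the cultures (0.03 ± 0.12 SE, adjusted p = 0.892). Chad (probe set 10380398), a leucine-rich protein that binds collagen and integrin, was 6.35, 6.34 and 6.54 in the lines, against 6.64, 6.47 and 6.39 in the cultures (-0.09 ± 0.10 SE, adjusted p = 0.576, and -0.16 without OS_716H). For both the groups overlapped, and the values lay inside the receptor range in all 6 arrays.

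Comp (probe set 10572378), a pentameric member of the thrombospondin family found in cartilage and tendon, was 7.55, 6.95 and 9.26 in OS_493H, OS_494H and OS_716H, against 7.04, 7.08 and 7.08 in the cultures. OS_716H stood 4.52-fold above the highest culture, OS_493H slightly above the cultures and OS_494H below them. The range of 2.31 units among the lines was the 143rd largest of all 19938 genes, while the SD over the cultures was 0.02. The difference of 0.85 ± 0.54 (SE) did not pass (limma adjusted p = 0.323, 95% interval -0.45 to 2.15), and without OS_716H it was 0.18 (adjusted p = 0.513). Thbs4, the thrombospondin of tendon and a close relative of Comp, was 8.22, 7.11 and 12.34 in OS_493H, OS_494H and OS_716H, against 7.59, 7.72 and 7.39 in the cultures. It had the same order of lines as Comp, with OS_716H 24.6-fold above the highest culture, and its difference rested on that line (1.65 ± 1.24 SE, adjusted p = 0.405, and 0.10 without OS_716H).

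Prg4 (probe set 10358476), which encodes lubricin, was 10.54, 6.73 and 8.79 in OS_493H, OS_494H and OS_716H, against 7.66, 6.94 and 7.33 in the cultures. OS_493H was 7.34-fold above the highest culture and OS_716H was also above the cultures, while OS_494H was below every culture. From the highest to the lowest line the level differed 14.0-fold, and this range ranked 26 among all 19938 genes. OS_494H lay inside the receptor range, so this fold rests in part on the low end of the scale. The difference of 1.38 ± 0.87 (SE) did not pass (limma adjusted p = 0.321, 95% interval -0.71 to 3.47). It was 0.45 without OS_493H (adjusted p = 0.693), 1.33 without OS_716H (0.420) and 2.36 without OS_494H, where it passed (0.0189).

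**Figure D2:**
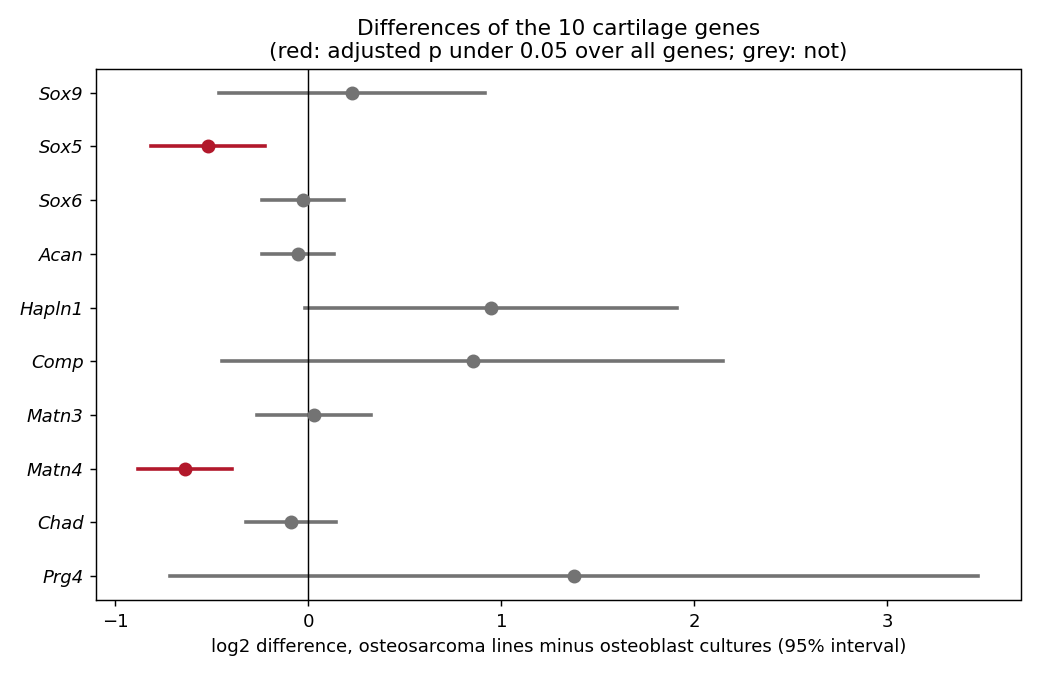
Log2 difference, osteosarcoma lines minus osteoblast cultures, for the 10 cartilage genes, with the 95% interval of limma's fit (3 arrays per group). The intervals of Sox5 (-0.52) and Matn4 (-0.64), in red, lie below 0 and passed the test over all genes. Those of Prg4, Comp and Hapln1 are the widest, and those of Sox6, Acan, Matn3 and Chad are among the narrowest, between -0.32 and 0.33.

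The spread among lines was set beside that of all genes and of the other cartilage genes. Of the 10 genes, 3 had a range over 1 log2 unit among the lines, against 4.98% of all genes. None had such a range among the cultures, against 1.15% of all genes. Of the 122 other cartilage genes described below, 28 had such a range among the lines and 6 among the cultures. The 28 included 9 of 17 genes of matrix breakdown and 4 of 11 family relatives of the matrix genes. A wide spread was thus not particular to the 10 genes. OS_716H was the highest line for 7 of the 10 (Sox9, Sox5, Sox6, Acan, Comp, Matn4 and Chad), against 38.4% of all genes. OS_494H was the lowest line for 7 of the 10 (Sox9, Sox5, Sox6, Comp, Matn4, Chad and Prg4), against 29.8% of all genes. Of the 122 other cartilage genes, OS_716H was the highest line for 78 and OS_494H the lowest line for 69. This order of lines was thus also common in the other cartilage genes. The 10 genes were chosen with earlier results known, and several of these steps are small, so the counts are a description. The coding neighbours of Prg4 and Comp did not share the size of their spread. Odr4 and Hmcn1 beside Prg4 ranged by 0.09 and 0.29 units among the lines, with OS_494H the lowest line, as for Prg4. Upf1 and Crtc1 beside Comp ranged by 0.65 and 0.11, with OS_716H the lowest line for both. Beside Hapln1, Edil3 ranged by 0.67 with OS_494H highest, as for Hapln1, and Vcan by 1.13 with OS_494H lowest.

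**Figure D3:**
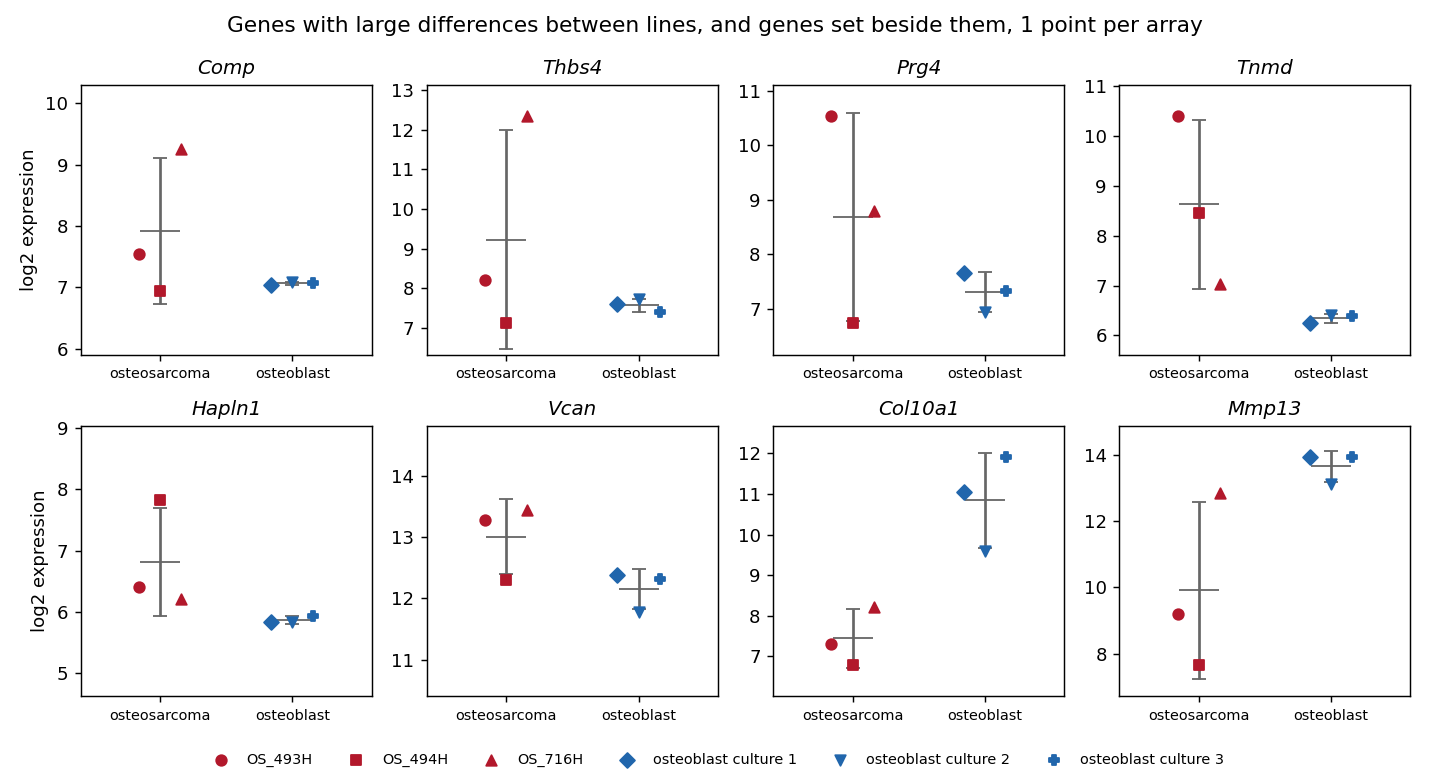
Log2 expression of genes with large differences between lines and of genes set beside them, osteosarcoma lines (red) left of osteoblast cultures (blue), 1 point per array, with group mean and SD (n = 3). Comp and Thbs4 share the order of lines, with OS_716H highest; Prg4 and Tnmd are highest in OS_493H; Hapln1 is highest in OS_494H where Vcan is lowest; Col10a1 and Mmp13 are lower in every line than in every culture, with OS_716H nearest to the cultures.

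Promoter windows of 300 bases (250 before and 50 after the annotated start, RefSeq, build GRCm38.p6) were found for 7 of the 10 genes, and not for Sox9, Comp and Prg4. They are shown for the genes that fell and for Hapln1, whose groups did not overlap, with a window of Sox6 as a contrast. They were searched on both strands for AACAAT and ACAAAG, 2 forms of the sequence that Sox proteins bind. The 2 motifs cannot overlap one another. Matches are in capitals, and the sequences run 5′ to 3′ along the gene.
Sox5 (chr6:143947057-143947356, minus strand): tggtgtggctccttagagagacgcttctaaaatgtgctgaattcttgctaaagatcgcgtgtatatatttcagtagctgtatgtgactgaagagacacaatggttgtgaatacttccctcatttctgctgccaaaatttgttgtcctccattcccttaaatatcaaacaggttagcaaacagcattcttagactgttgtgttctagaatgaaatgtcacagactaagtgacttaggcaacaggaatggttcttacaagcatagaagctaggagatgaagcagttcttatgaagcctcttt
Matn4, the upstream start of 2 (chr2:164405111-164405410, minus strand): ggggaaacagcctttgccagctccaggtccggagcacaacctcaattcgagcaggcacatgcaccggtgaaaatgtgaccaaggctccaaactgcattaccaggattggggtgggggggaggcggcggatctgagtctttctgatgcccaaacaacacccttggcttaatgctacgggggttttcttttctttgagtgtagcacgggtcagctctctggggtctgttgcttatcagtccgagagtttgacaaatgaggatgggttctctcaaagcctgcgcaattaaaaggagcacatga
Hapln1 (chr13:89540386-89540685, plus strand): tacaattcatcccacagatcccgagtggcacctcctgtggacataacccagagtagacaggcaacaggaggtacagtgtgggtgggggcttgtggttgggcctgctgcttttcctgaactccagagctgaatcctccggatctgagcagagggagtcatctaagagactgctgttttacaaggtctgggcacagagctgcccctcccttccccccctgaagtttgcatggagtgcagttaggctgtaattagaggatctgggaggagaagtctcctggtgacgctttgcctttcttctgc
Sox6, the fifth of 6 starts (chr7:115824661-115824960, minus strand): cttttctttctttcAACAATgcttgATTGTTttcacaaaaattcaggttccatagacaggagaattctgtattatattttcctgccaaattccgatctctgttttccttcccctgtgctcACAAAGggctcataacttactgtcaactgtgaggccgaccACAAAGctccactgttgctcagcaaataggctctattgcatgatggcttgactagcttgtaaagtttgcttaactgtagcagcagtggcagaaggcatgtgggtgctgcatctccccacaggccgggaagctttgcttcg
The windows of Sox5, Matn4 and Hapln1 held neither motif, as did those of Acan, Matn3 and Chad, so that 6 of the 7 genes had none. The fifth Sox6 start held 4 matches, and 5 of its 6 starts held at least 1. Of all 32851 promoter windows, 10.7% held AACAAT, 18.7% held ACAAAG and 27.0% held either. The windows also differed in base composition: that of Acan had 74.0% G and C with 31 CpG sites, and that of Sox5 39.7% with 3, against medians of 52.7% and 7 over all windows. A match is a run of letters and not a site of binding, and the lack of one says only that these letters are not in the window.

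The genes with the pattern most like that of Sox9 were sought over the 6 arrays, after each gene's own mean was subtracted. Predicted, Rik-named, olfactory, vomeronasal and small RNA genes were left out. With so many genes and 6 arrays, close matches can arise for any gene, so this is a description with no test. The nearest to Sox9 were Tapbp and Spsb1, with root mean square differences of 0.14 log2 units each. Sox9 itself varied by 0.38 about its mean. For Sox5, which varied by 0.29, they were Tmem151a and Sh2d4a (0.05 and 0.06 units). For Matn4, which varied by 0.33, they were Chp1 and Slc25a28 (0.03 and 0.04). The same search for the 3 genes with a wide spread was added after their values were seen. It gave Tek and Pamr1 for Prg4 (0.38 and 0.43), Osr2 and Clip4 for Comp (0.13 and 0.14), and Polr3g and Miga1 for Hapln1 (0.10 and 0.15). About their own means, Prg4 varied by 1.32, Comp by 0.81 and Hapln1 by 0.70. Tek, an endothelial receptor kinase, was 9.05, 6.30 and 7.52 in OS_493H, OS_494H and OS_716H and 6.40, 6.34 and 6.40 in the cultures. The other endothelial markers (Pecam1, Cdh5, Kdr and Emcn) differed by at most 0.15 units between the groups. Among the lines, Emcn and Pecam1 were highest in OS_493H, 1.24- and 1.06-fold above the lowest line. Cdh5 and Kdr were highest in OS_494H (1.08- and 1.10-fold). Emcn in OS_493H was 0.28 units above the highest culture. The part of endothelial cells in the pattern of Prg4 was not tested.

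The wider cartilage programme was described with 8 further lists of 125 genes, of which 122 were measured. In all, 17 of the 122 rose and 16 fell in the lines, shares near those of all genes (13.2% and 11.4%). Without culture 1 these counts were 8 and 6, and fewer rose without OS_493H (11) or culture 3 (11) and fewer fell without culture 2 (9) or culture 3 (10). Over all genes, 2622 rose and 2274 fell with all arrays, but 1533 and 1211 without culture 1 and 1610 and 1350 without culture 3. They were 2131 and 1739 without OS_493H, and 2086 and 1793 without culture 2. Fewer calls without these arrays were thus not particular to the cartilage genes. The split by list follows, and each count with all arrays is to be read against the shares of all genes above. Counts with an array left out are not to be read against those shares.

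Of 8 cartilage collagens measured, Col10a1 and Col11a2 fell and none rose, against 11.4% of all genes that fell and 13.2% that rose. With 8 genes, this count is too small to set apart from the background. The count that fell was 1 without each array other than OS_716H. Col10a1, the collagen of hypertrophic chondrocytes, was 7.31, 6.79 and 8.23 in OS_493H, OS_494H and OS_716H, against 11.05, 9.58 and 11.90 in cultures 1, 2 and 3. It was 10.6-fold lower in the lines (-3.40 ± 0.62 SE, limma adjusted p = 0.00946), and the call held without any 1 array (adjusted p up to 0.0449). Col11a2, a minor chain of cartilage fibrils, differed by -0.41 ± 0.11 (adjusted p = 0.0360), and its call was lost when any 1 array other than OS_716H was dropped (up to 0.104). Col2a1, the defining collagen of cartilage, named here outside the rule, was 9.02, 8.72 and 8.97 in the lines, against 8.87, 9.11 and 8.75 in the cultures (-0.01 ± 0.13 SE, adjusted p = 0.975).

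Of 15 other cartilage matrix genes none passed, against 13.2% of all genes that rose and 11.4% that fell. An unadjusted limma p under 0.05 was seen for 2, both with lower levels in the lines. Among all 19938 genes, 3422 had such a p with a lower level, so 2 of 15 does not stand out. Fibromodulin (Fmod), a leucine-rich proteoglycan of cartilage and tendon, was 8.29, 8.16 and 10.93 in OS_493H, OS_494H and OS_716H, and 10.97, 11.98 and 11.06 in the cultures. OS_716H lay next to the cultures, and without it Fmod passed (-3.11, adjusted p = 0.00333, against -2.21 and 0.0795 with all arrays), as it did with array weights (0.0185). Prelp, of the same family, was 10.31, 7.94 and 9.10 in the lines, against 10.60, 10.75 and 10.42 in the cultures (-1.47 ± 0.54 SE, adjusted p = 0.100), and it passed without OS_493H (-2.07, 0.0131). Of 11 family relatives of the matrix genes, 1 rose and none fell, against 13.2% and 11.4% of all genes. The riser was Thbs3, a thrombospondin of the same pentameric subgroup as Comp. It was 10.08, 8.99 and 10.05 in the lines, against 7.42, 7.84 and 7.68 in the cultures, 4.17-fold higher in the lines (adjusted p = 0.00412).

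Of 24 measured chondrocyte regulators, 5 rose and 5 fell, against 13.2% and 11.4% of all genes. Pth1r, the receptor for the growth plate signal PTHrP, fell by 1.71 ± 0.50 (SE, limma adjusted p = 0.0497), Mef2c, a driver of hypertrophy, by 1.29 ± 0.35 (0.0366), and Hdac4, its repressor, by 0.68 ± 0.13 (0.0125). Bmpr1b, a receptor for Gdf5 and BMPs in cartilage condensations, was 7.13, 7.72 and 6.70 in the lines, against 5.55, 5.54 and 5.61 in the cultures (1.62 ± 0.24 SE, adjusted p = 0.00427). For Bmpr1b, the cultures and the lowest line lay inside the receptor range. The other risers were Arid5b, Gli3, Bmp2 and Hif1a, and Arid5a and Fgfr3 also fell. On leaving out 1 array, 3 to 6 regulators rose (3 without culture 1, culture 3 or OS_493H). Between 0 and 5 fell, with 0 without culture 1, 1 without OS_493H, 2 without culture 2 and 3 without culture 3 or OS_494H. The call of Pth1r held in 7 of 16 settings: it was lost without each array other than OS_716H (adjusted p up to 0.140), with cultures 1 and 3 as 1 sample (0.0948), and with all arrays under quantile normalization (0.0515), over all probe sets (0.0510) and with robust moderation (0.0583). That of Mef2c held in 10 of 16, and was lost without OS_493H, OS_494H, culture 1 or culture 2 (up to 0.113), with cultures 1 and 3 as 1 sample (0.0546) and with a weight for each group (0.0511), and that of Hdac4 without culture 1 (0.0550).

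Genes for the sugar chains of the matrix went both ways. Of 23 genes of chondroitin sulfate and hyaluronan synthesis, 7 rose and 4 fell, against 13.2% and 11.4% of all genes. Has2, a hyaluronan synthase, was 11.19, 11.18 and 11.62 in OS_493H, OS_494H and OS_716H, against 6.72, 8.78 and 6.80 in cultures 1, 2 and 3. It was 14.9-fold higher in the lines (3.89 ± 0.54 SE, limma adjusted p = 0.00352), with culture 2 well above the other cultures. Culture 1 lay inside the receptor range for Has2. Ugdh, which makes the sugar nucleotide used for both polymers, rose by 0.79 ± 0.09 (SE, adjusted p = 0.00194). The chondroitin sulfotransferases Chst15 and Chst11 fell, by 1.53 ± 0.16 (adjusted p = 0.00156) and 0.89 ± 0.15 (0.00758). All 4 held on leaving out any 1 array. The count for the list moved: 2 rose without culture 1, 3 without OS_493H and 4 without culture 3.

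Of 17 measured genes of cartilage matrix breakdown, 5 fell and 2 rose, against 11.4% and 13.2% of all genes. Ctsk, a collagen-degrading cathepsin, fell by 1.65 ± 0.32 (SE, limma adjusted p = 0.0114), the membrane metalloproteinase Mmp14 by 0.67 ± 0.11 (0.00721) and the aggrecanase Adamts4 by 1.00 ± 0.29 (0.0487). Timp1, an inhibitor of metalloproteinases, rose by 0.68 ± 0.13 (0.0113). Without culture 1 the calls of Ctsk, Adamts4 and Timp1 were lost (adjusted p = 0.0530, 0.110 and 0.0528), and that of Adamts4 also without culture 2, culture 3 or OS_493H (up to 0.155). Mmp13, the collagenase of hypertrophic cartilage and of osteoblasts, named here after its values were seen, was 9.19, 7.67 and 12.86 in OS_493H, OS_494H and OS_716H, against 13.92, 13.11 and 13.92 in the cultures. It had the order of lines seen for Comp and Col10a1, and its difference did not pass with all arrays (-3.74 ± 1.22 SE, adjusted p = 0.0700). It passed without OS_716H (-5.22, adjusted p = 0.00289), with array weights (0.00940) and with a weight for each group (0.0407), 3 of 16 settings. The count that fell was 8 without OS_716H, 2 without culture 1 and 3 without culture 2 or 3, and 1 gene rose without culture 1.

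Of 8 tendon and joint genes, 1 rose and none fell, against 13.2% and 11.4% of all genes. The riser was Creb5, which promotes Prg4 expression in joint cartilage. It was 9.57, 8.86 and 9.11 in OS_493H, OS_494H and OS_716H, against 8.36, 8.58 and 8.21 in the cultures (0.80 ± 0.19 SE, limma adjusted p = 0.0255). The call was lost without culture 1 (adjusted p = 0.0907), culture 3 (0.0959) or OS_716H (0.0504) and with cultures 1 and 3 as 1 sample (0.0926). The count that rose was 0 without culture 1 or culture 3 and 2 without OS_494H. Tnmd, a membrane protein of tendon, was 10.40, 8.46 and 7.03 in OS_493H, OS_494H and OS_716H, against 6.24, 6.41 and 6.39 in the cultures. Each line lay above each culture, with OS_493H 15.9-fold above the highest (2.29 ± 0.76 SE, adjusted p = 0.0761). The cultures lay inside the receptor range, so this fold rests in part on the low end of the scale. Tnmd passed without OS_716H (0.0125), with array weights (0.0127) and with a weight for each group (0.0427). Egr1, a stress-responsive factor also active in tendon, was 9.34, 10.31 and 9.21 in the lines, against 10.26, 10.86 and 10.86 in the cultures, with overlap (-1.04 ± 0.32 SE, adjusted p = 0.0560). It passed in 6 of 16 settings: quantile normalization (0.0416), median centring (0.0452), the dim filter (0.0428), array weights (0.0281), a weight for each group (0.0475) and without OS_494H (0.00506).

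**Figure D4:**
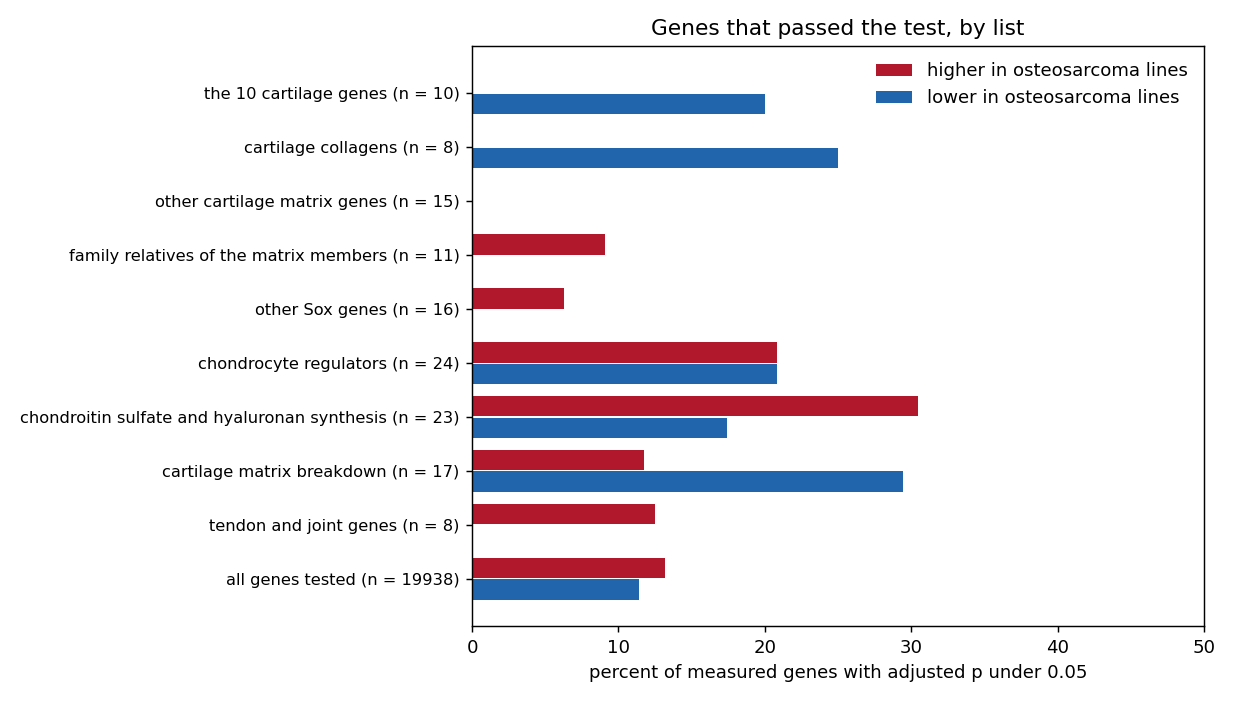
Percent of the measured genes of each list that passed the test (adjusted p under 0.05 over all genes), split into genes higher (red) and lower (blue) in osteosarcoma lines compared with osteoblast cultures, with the number of measured genes in parentheses. Of the 10 cartilage genes none is higher and 2 are lower, and in the bottom row 13.2% of all genes are higher and 11.4% lower.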

How the data were processed

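RNA from 3 osteosarcoma lines and 3 osteoblast cultures was hybridised to 1 Affymetrix Mouse Gene ST array each. The authors deposited normalized log2 values made with RMA and build mm9 (per the submitters' processing notes), between 3.04 and 14.88. The sources used here give no software or version. RMA brings the probe signals of all arrays to a shared distribution, so a change in total RNA per cell would not be seen. Of 35556 probe sets, 21789 had 1 gene symbol in the platform annotation, 1621 had several and 12146 were not listed. Symbols were checked against RefSeq (GRCm38.p6), where 21698 probe sets matched, 91 did not and no symbol changed. For a gene with several probe sets (999 of 19938) the one with the highest mean over the 6 arrays was taken, and no gene was filtered out. Array medians were 7.45 to 7.58.

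Groups came from the sample titles. limma 3.58.1 (lmFit and eBayes, R 4.3.3) tested all 19938 genes with no covariate. The procedure was tested on simulated data. The 10 genes and the lists were chosen with earlier results of these data known. Beside the 10 genes, the text names from each list up to 4 called genes with the largest difference or, where fewer than 2 were called, the 2 largest differences, and for Sox9 and each called member the 2 genes nearest in pattern. Genes named outside this rule (Col2a1, Mmp13, Vcan, Edil3, Tek, Creb5, the remaining called regulators and gene neighbours) were chosen after their values were seen. Alternatives covered quantile normalization, median centring, a filter on dim genes, probe set choice, array and group weights, an intensity trend, robust moderation, cultures 1 and 3 as 1 sample, and leaving out each array.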

Additional observations from a re-analysis of the deposited data

How the results depend on the processing

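All 16 alternative settings were run, 6 of them leaving out 1 array. Of 155 values for the 10 genes, 142 kept their direction and their side of the threshold, 5 lost a call (all Sox5), 2 gained one (Hapln1 and Prg4, without OS_494H) and 6 changed sign, all within their error. Those were Sox6 without OS_493H (0.0012) or OS_494H (0.0247), and Matn3 with median centring (-0.0167), with cultures 1 and 3 as 1 sample (-0.0317), without OS_494H (-0.0035) or without culture 3 (-0.0657). On leaving out 1 array, Sox6 ranged from -0.1064 to 0.0247 and Matn3 from -0.0657 to 0.1577. The count of the 10 genes that rose was 0 to 2 on leaving out 1 array, with 2 without OS_494H, and the count that fell was 1 to 2, and 1 with cultures 1 and 3 as 1 sample. Among the 122 other cartilage genes, 11 rose and 8 fell with cultures 1 and 3 as 1 sample, and 8 to 22 rose and 6 to 21 fell on leaving out 1 array. Of 350 values for the other genes named by the rule, 305 kept their call, 32 lost it, 13 gained it and none changed sign. Over all genes, 1606 rose and 1316 fell with cultures 1 and 3 as 1 sample, 1533 and 1211 without culture 1, and 1610 and 1350 without culture 3, against 2622 and 2274 with all arrays. These settings leave fewer samples, and no other cause was tested. The dim filter left out Sox6, Acan, Matn3, Hapln1 and Chad, which have no value there. No paired analysis was possible because the replicate numbers of the lines are only names and are not shared with the cultures. Without a detection call or probe-level background, changes in genes near the low end of the scale may be understated.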

Other observations

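Several genes of the wider lists differed more among the lines than between the groups. Csgalnact1, which starts chondroitin sulfate chains, differed 5.16-fold between the highest and the lowest line, and Adamts12, a protease that cleaves Comp, 7.54-fold, each with OS_716H highest and OS_494H lowest. Runx3, a regulator of chondrocyte hypertrophy, ran the other way, with 7.88 in OS_493H, 10.25 in OS_494H and 8.96 in OS_716H, against 10.17, 10.38 and 10.04 in the cultures. Adamts5, the other main aggrecanase, was highest in OS_493H, 3.51-fold above OS_494H. None of these 4 passed limma's test between the groups with all arrays. Runx3 passed without OS_494H (-1.78, adjusted p = 0.00932) and with array weights (0.0371), and the other 3 in none of 16 settings. With 1 array per line the differences among lines have no replicate check. They were chosen after their values were seen.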
